A study of Mus musculus with 22 samples.

Results

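The cells named Neurons in the authors' deposited cell table were a rare population of mouse gastruloids. Every cell carrying that name was taken, and 70 of 77674 annotated cells did, a share of 0.0901% (exact Clopper-Pearson 95% interval 0.0703% to 0.114%). Gastruloids are aggregates of embryonic stem cells that break symmetry and form tissues of the embryonic trunk in culture. Here all came from 1 line, E14Tg2A, kept in serum with LIF, aggregated in wells and given a pulse of the GSK3 inhibitor CHIR99021, which activates Wnt signalling. The labels name no other genotype or agent, so the groups are defined by day and experiment. Transcripts were counted as unique molecular identifiers (UMIs) in droplets, and in 3 experiments lipid-anchored barcodes (MULTI-seq) marked which single gastruloid a cell came from. MULTI-seq 1 sampled day 5, MULTI-seq 2 is used here for days 4 and 4.5 in pools B and C (its samples of days 3 and 3.5 are not analysed here), and MULTI-seq 3 sampled day 3, days 3.5 and 4, and days 4.5 and 5 in separate pools. A pair of unbarcoded samples covered days 3 and 4.

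Neurons arise when a neural progenitor raises a proneural transcription factor such as Neurog2 or Neurog1. That cell then displays the Notch ligand Dll1, which holds its neighbours in the progenitor state, leaves the cell cycle, and switches on differentiation factors of the Neurod, Nhlh and Ebf families. The young neuron next builds axonal cytoskeleton from tubulins, stathmins and neurofilaments, and later its vesicle and synapse proteins. In the trunk, spinal cord progenitors are the source of most such cells, while neural crest gives the sensory neurons of the ganglia.

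Proneural factors bind E-boxes, short motifs, of which the form searched here reads CAGATG on 1 strand and CATCTG on the other. The 250 bases before the start of 3 genes that set these cells apart are shown to illustrate this. They are Nhlh1, a helix-loop-helix factor of newborn neurons, Srrm3, a regulator of neuronal microexon splicing, and Elavl3, a neuronal RNA-binding protein. Sequences are from RefSeq on GRCm38.p6, 5′ to 3′ along the gene's own strand, with either form of the motif in capitals.
Nhlh1: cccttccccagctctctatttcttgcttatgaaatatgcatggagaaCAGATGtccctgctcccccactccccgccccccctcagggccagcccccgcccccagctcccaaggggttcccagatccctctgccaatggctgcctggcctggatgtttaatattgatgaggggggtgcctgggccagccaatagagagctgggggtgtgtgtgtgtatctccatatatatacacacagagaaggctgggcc
Srrm3: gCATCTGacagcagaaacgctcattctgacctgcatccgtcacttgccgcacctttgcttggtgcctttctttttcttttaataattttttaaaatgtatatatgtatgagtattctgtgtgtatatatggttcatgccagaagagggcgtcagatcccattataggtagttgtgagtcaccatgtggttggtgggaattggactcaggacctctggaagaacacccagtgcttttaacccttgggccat
Elavl3: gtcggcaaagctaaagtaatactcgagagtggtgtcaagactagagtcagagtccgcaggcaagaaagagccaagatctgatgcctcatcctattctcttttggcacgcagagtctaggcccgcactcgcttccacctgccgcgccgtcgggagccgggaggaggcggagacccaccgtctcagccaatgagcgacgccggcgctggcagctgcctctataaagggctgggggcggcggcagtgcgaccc
The Nhlh1 window lies at chr1:172057597-172057846 on the minus strand, and its motif starts 203 bases before the gene's start. The Srrm3 window lies at chr5:135817856-135818105 on the plus strand, with the motif 249 bases before the start. The Elavl3 window, at chr9:22052024-22052273 on the minus strand, holds neither form. Of the 23 leading genes and given markers, 16 matched a RefSeq promoter, and 2 of those 16 windows (12.5%) held the motif on either strand. Among all promoters of the same length, 3913 of 27025 (14.5%) held it. The share in these genes was thus close to that of promoters at large, and a match is a description of letters, not of a bound site.

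Depth and cell quality come first, because they touch every value that follows. The 70 Neurons held 4983 to 64670 UMIs each, with a median of 15525, against 26352.5 over all annotated cells. Within the 28 gastruloids that held a Neuron, Neurons averaged 16903 UMIs and the other cells 25374, a log2 difference of -0.67 ± 0.43 (SD, n = 28 gastruloids) that was below 0 in 26 of 28 (two-sided permutation p = 1e-05, the smallest that 100000 resamples can give). Against Late Spinal Cord cells of the same day-5 gastruloids, the difference was -0.78 ± 0.36 (SD, n = 9), with Neurons lower in 9 of 9 (exact permutation p = 0.00391, the smallest possible). Mitochondrial genes took a larger share of their UMIs, 5.82% against 4.23% in the same comparison, a difference of 1.59 ± 1.35 percentage points (SD, n = 9; exact permutation p = 0.0117). Over all 28 gastruloids the difference from the other cells was 0.748 ± 1.17 percentage points, with Neurons lower in 9 (permutation p = 0.00176). By pool, the median share was higher in Neurons in MULTI-seq 1 (7.43% against 5.45%) and in pools B and C, level at day 3 (2.23% against 2.21%), and lower in the pools of days 3.5 and 4 (1.80% against 2.18%) and of days 4.5 and 5 (1.65% against 1.96%). Without lane 2 of MULTI-seq 1, the difference from Late Spinal Cord was 1.28 percentage points, with an exact permutation p of 0.0938. Neurons were therefore shallower cells, and for most genes set between pools the shares of cells with a UMI are given below also after thinning each cell to 5000 UMIs, with pools B and C of MULTI-seq 2 joined. The table's phase call placed all 70 Neurons in G1, while 25.8% to 36.6% of the other cells in the same pools were called G1.

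Over the summed cells, the name was upheld by 3 of its 4 given markers. Since cells had been clustered on their genes, what follows on marker levels is a description and carries no test, and levels are CPM, a gene's UMIs scaled to a common total of UMIs over the summed cells. Other named populations were summed over all days and experiments unless a day is given, so name and day are not separated. Tubb3, the neuron-specific beta tubulin, had a UMI in 68 of 70 Neurons and a level of 2406 CPM, and the next highest named population, Caudal Neurectoderm, was at 28.1. Elavl3 had a UMI in 64 Neurons, at 369 CPM against 9.43 in Late Neurectoderm. Stmn2, a stathmin of growth cones, had one in 63, at 2460.3 CPM against 376 in Early Neurectoderm. The fourth, Neurog2, is a proneural factor that acts while a progenitor commits, and only 9 of 70 Neurons held a UMI of it, at 16.8 CPM against 4.75 in Late Spinal Cord. After thinning to 5000 UMIs, Tubb3 was seen in 94.2% of 69 Neurons, 9.32% of 397 sampled Late Spinal Cord cells and 2.52% of 397 sampled Mature Somites cells, a mesodermal type that should lack it. The corresponding shares were 75.4%, 1.76% and 1.01% for Elavl3, 84.1%, 15.6% and 12.6% for Stmn2, and 7.25%, 2.52% and 0% for Neurog2. Median depths before thinning were 15525 UMIs in Neurons, 23550 in Late Spinal Cord and 22436 in Mature Somites. The deposited map to a mouse embryo atlas assigned 69 of 70 Neurons to dorsal midbrain neurons of stage 9.25, with a mapping score of 1 in 65 of the 70 and a lowest score of 0.3. That atlas label is the nearest entry, not a measured position along the body axis.

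Neurons were present from the first day sampled and never made up more than a small fraction of a pool. At day 3 of MULTI-seq 3, 17 of 12086 cells were Neurons, a share of 0.141% (exact 95% interval 0.0820% to 0.225%). The pool of days 3.5 and 4 held 9 of 22712, or 0.0396% (0.0181% to 0.0752%), and the pool of days 4.5 and 5 held 17 of 17790, or 0.0956% (0.0557% to 0.153%). In MULTI-seq 2, pool B held 10 of 4746 (0.211%, 0.101% to 0.387%) and pool C 10 of 5106 (0.196%, 0.0940% to 0.360%). MULTI-seq 1 at day 5 held 7 of 9736, or 0.0719% (0.0289% to 0.148%). The intervals of the day-3 pool and of the pool of days 3.5 and 4 did not overlap, whereas those of the 2 pools with day-5 cells did. The unbarcoded samples held no Neuron: taking 3 counts as the limit, 0 of 3058 cells at day 3 still permits a share of up to 0.0981%, and 0 of 2440 at day 4 a share of up to 0.123%. The upper ends of their exact intervals, the measure used for the other pools, were 0.121% and 0.151%. These intervals and limits cover counting error only. No Neuron had a cell barcode that also occurred in another lane, although 732 of 76935 distinct barcodes did.

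**Figure D1:**
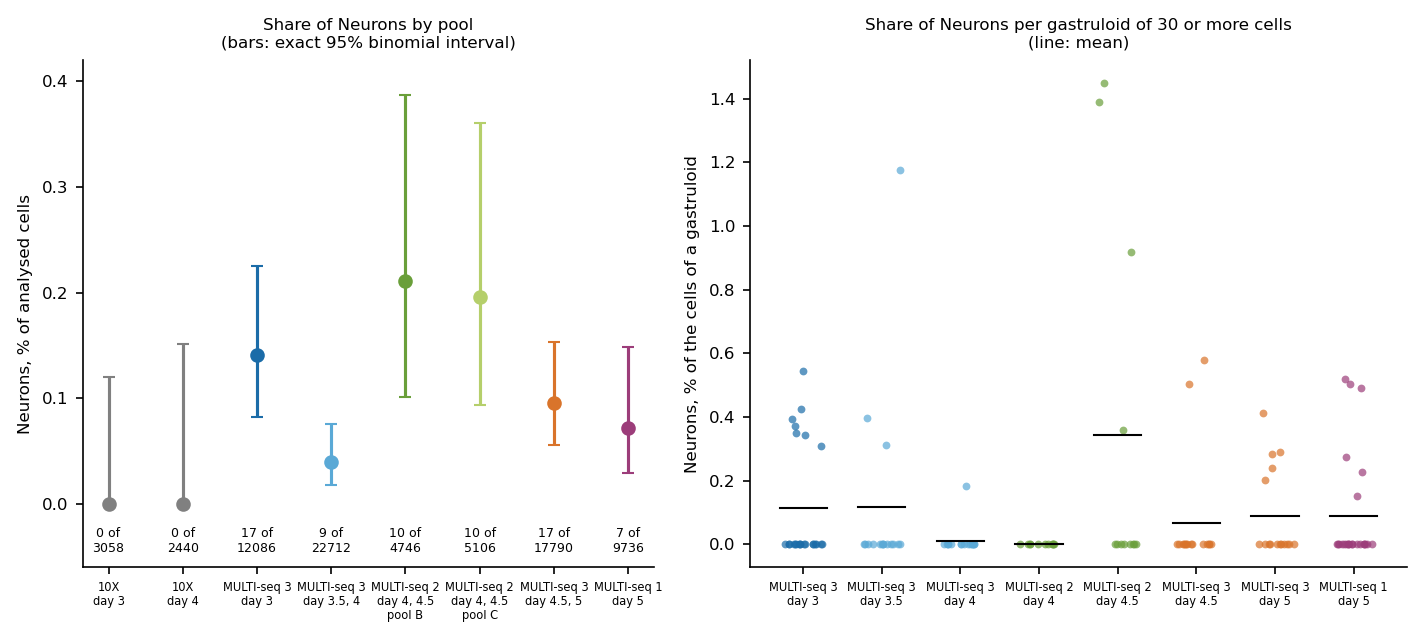
Left, Neurons as a percentage of annotated cells in each pool (y axis), with exact 95% intervals; right, Neurons as a percentage of cells in each single gastruloid, by experiment and day. Pool shares ran from 0 to 0.211%, and most gastruloids at every day sat at 0.

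Single gastruloids rarely yielded more than 1 Neuron. Of 135 barcoded gastruloids, 28 held any, and the highest number in 1 gastruloid was 4, at day 5 of MULTI-seq 3. The barcodes placed 41 of the 70 in a single gastruloid, while 15 had no clear barcode, 4 carried more than 1 and 10 were unidentifiable. At day 3 of MULTI-seq 3, 9 of 17 Neurons (52.9%) lacked a barcode, against 40.1% of the other cells, and in the pool of days 3.5 and 4 it was 5 of 9 (55.6%) against 13.1%, so gastruloid values at those days rest on fewer than all Neurons. By the authors' class of each gastruloid, 26 of the assigned Neurons lay in neural gastruloids (18 of 52 held one), 13 in mesodermal gastruloids (8 of 70) and 2 in intermediate ones (2 of 13). The class is an outcome of cell composition, so these counts carry no test.

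The mean share per gastruloid was 0.114% ± 0.186 at day 3 of MULTI-seq 3 (SD, n = 24, 7 with Neurons). It was 0.118% ± 0.307 at day 3.5 (n = 16, 3 with Neurons) and 0.0114% ± 0.0457 at day 4 (n = 16, 1 with a Neuron). At day 4.5 it was 0.0676% ± 0.185 (n = 16, 2 with Neurons) and at day 5 it was 0.0892% ± 0.143 (n = 16, 5 with Neurons). At every day the spread between gastruloids was wider than the mean. Day 5 of MULTI-seq 1 gave 0.0903% ± 0.177 (n = 24, 6 with Neurons), and day 4.5 of MULTI-seq 2 gave 0.343% ± 0.571 (n = 12, 4 with Neurons, highest 1.45%). None of the 11 gastruloids at day 4 of MULTI-seq 2 held a Neuron, and 0 of the 1519 cells assigned to that day did, an upper limit of 0.197% at 3 counts. However, 13 of the 20 Neurons of MULTI-seq 2 were among 5626 cells not resolved between days 4 and 4.5, so their presence at day 4 is unknown.

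None of the tested differences in share passed the threshold of 0.05. Within MULTI-seq 3, day 5 exceeded day 4.5 by 0.0216 percentage points (two-sided permutation p = 0.741, 100000 resamples). At day 5, MULTI-seq 3 and MULTI-seq 1 differed by -0.00101 percentage points (permutation p = 0.998), and at day 4.5, MULTI-seq 3 was lower than MULTI-seq 2 by 0.275 percentage points (-0.275, permutation p = 0.113). Neurons are made from neural progenitors, so their share among Neurons plus Late Spinal Cord cells was compared too, in gastruloids with at least 30 such cells. It was 0.205% ± 0.311 (SD, n = 8) at day 5 and 0.581% ± 1.06 (n = 7) at day 4.5 of MULTI-seq 3 (exact permutation p = 0.437), and 0.371% ± 0.520 (n = 9) at day 5 of MULTI-seq 1 (exact permutation p = 0.498 against MULTI-seq 3). That minimum left out the gastruloids with the highest shares at day 5: 13 and 18 of MULTI-seq 3, at 25.0% and 22.2% of 8 and 9 cells, and 19 and 20 of MULTI-seq 1, at 4.35% and 5.88% of 23 and 17 cells. No gastruloid held more than 4 Neurons, and the size of difference that could have been detected was not tested.

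Relations across gastruloids were sought with the shares of other cell types. In MULTI-seq 1 at day 5 (n = 24), the share of Neurons rose with that of Late Spinal Cord (Pearson r = 0.61, permutation p = 0.0029 and 0.0265 after adjustment over 18 relations; Spearman rho = 0.49, permutation p = 0.0142 and 0.114 after adjustment). Leaving out the 2 gastruloids farthest from the median gave r = 0.42. Against Late Posterior PSM, the presomitic mesoderm that feeds the somites, the relation was negative (r = -0.57, permutation p = 0.00295 and 0.0265 after adjustment; rho = -0.54, permutation p = 0.00739 and 0.114 after adjustment; r = -0.50 without the 2 farthest). In MULTI-seq 3 at day 5 (n = 16), r with Late Spinal Cord was 0.48 (permutation p = 0.0504, adjusted p = 0.184) and fell to 0.13 without the 2 farthest, so that relation rests on those samples. At day 4.5 (n = 16) it was 0.34 (permutation p = 0.198, 0.298 after adjustment). With Early Spinal Cord, r was -0.09, 0.01 and 0.08 in the same order. Of the 18 relations computed, 2 passed after adjustment by Pearson's r and 0 by Spearman's rho. Shares of 1 gastruloid add up to a whole, so a gastruloid rich in neural cells is poor in mesoderm by construction.

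Ranked by the ratio of their day-5 level to that of the highest other named population, the first 20 included Mir124a-1hg, Nhlh1, St18, Chgb, Gm16551, Myt1, Clvs1, Dcx, Tubb3, Tlx3, Sstr2, Fbll1, Neurod4, Srrm3, Snap25, Scg2, Npy, Gm26871 and Rassf4. Mir124a-1hg hosts miR-124, the microRNA that represses non-neuronal transcripts, and its ratio was 388. For Nhlh1 the level was 130 CPM in the 19 day-5 Neurons, against 0.520 in the next population, a ratio of 251. Chgb, a granin of dense-core vesicles, was at 196 against 1.17, and Dcx, the doublecortin of migrating neurons, at 183 against 2.34. Not all leading genes were general: over all days, Rassf4 and Nhlh1 each had a UMI in 44 of 70 Neurons, Chgb in 48 and Dcx in 54, but Mir124a-1hg in 26 and Npy, a neuropeptide, in 4.

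**Figure D2:**
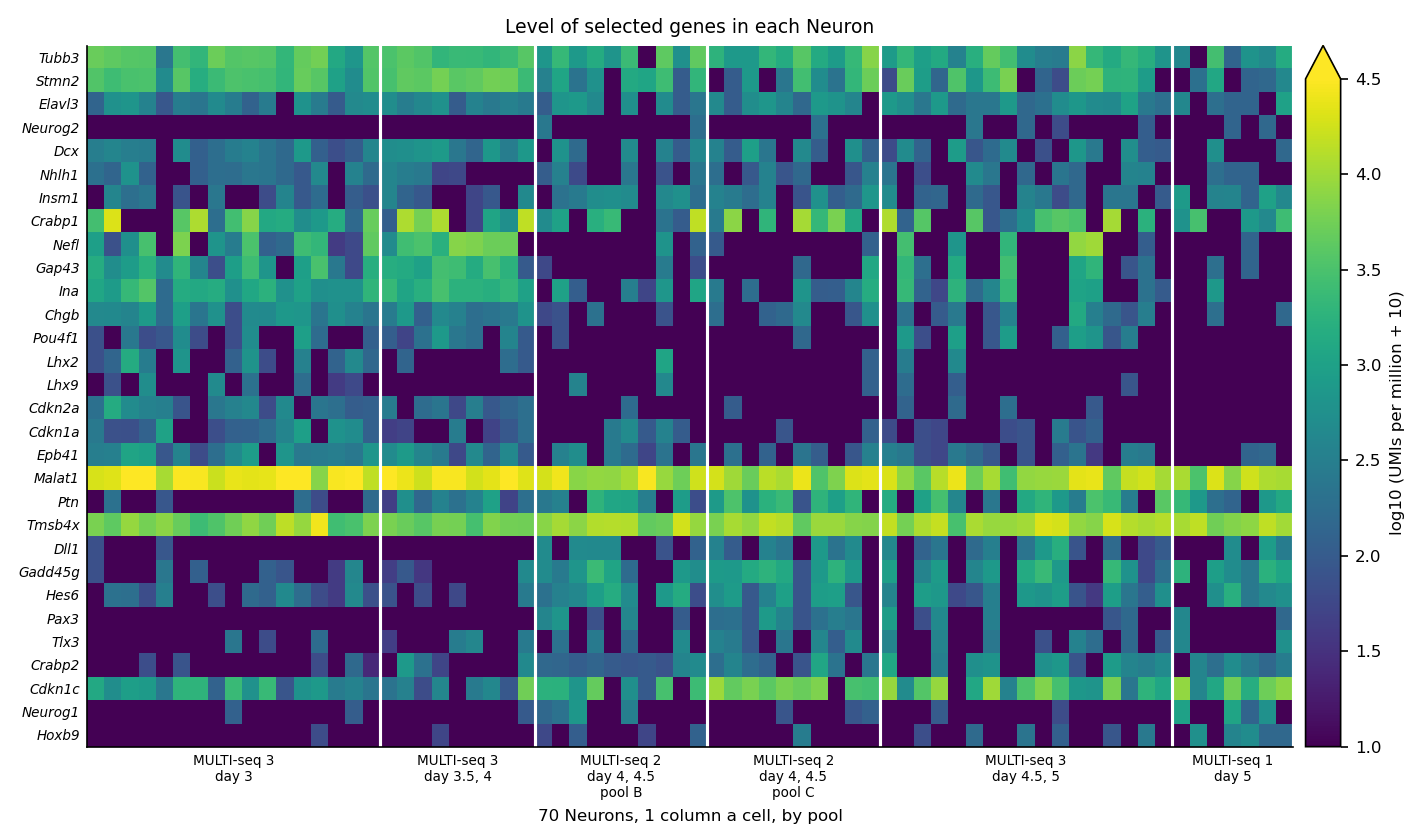
Levels of 30 genes (rows) in each of the 70 Neurons (columns, grouped by pool), as log10 of CPM plus 10. Tubb3 was seen in 68 of the 70 cells, while Nefl was concentrated in a subset of MULTI-seq 3 Neurons and Dll1 was seen in 30 cells.

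Proneural and Notch genes come first by role. Of 35 such genes, 30 had a higher level in Neurons than in Late Spinal Cord, and their sum was 5985 CPM against 1173. Of all 27114 genes seen in any annotated cell, 9912 (36.6%) were higher too. A gene without a UMI in Neurons cannot be higher, and only 14414 had one, as did 34 of the 35. The 9912 are therefore also to be set against 14414, here and beside the counts of higher genes in the lists below. Nhlh1 had a UMI in 14 of 17 Neurons at day 3, 5 of 9 at days 3.5 and 4, 6 of 10 and 7 of 10 in pools B and C, 9 of 17 at days 4.5 and 5, and 3 of 7 in MULTI-seq 1. It was thus seen in every pool, and at 5000 UMIs its share lay between 22.2% and 58.8%, against 0% in Mature Somites. Neurod1, a differentiation factor downstream of the proneural genes, had a UMI in 15 of 17 Neurons at day 3 and in 0 of 7 in MULTI-seq 1, with levels of 196 and 0 CPM and thinned shares of 70.6% and 0%. These 2 pools differ in both day and experiment, which cannot be told apart between them. Dll1 was rare in the 2 early pools: it had a UMI in 2 of 17 Neurons at day 3 and in 0 of 9 at days 3.5 and 4, then in 6 of 10, 7 of 10, 12 of 17 and 3 of 7 in the later pools. The Dll1 level was 5.68 and 0 CPM in the 2 early pools and 212 to 260.3 in the 4 later ones, beside 30.1 in Late Spinal Cord. At 5000 UMIs, Dll1 was seen in 11.8% of day-3 Neurons, 0% at days 3.5 and 4, and 47.1% to 50.0% later, against 12.3% of Mature Somites cells, so the early values are no higher than in that mesodermal type.

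Gadd45g and Hes6, both induced during neurogenesis, had the same order as Dll1. Gadd45g was at 51.2 and 41.6 CPM in the 2 early pools of MULTI-seq 3 and at 556 to 921 in the later pools. Hes6 was at 117 and 37.0 early and at 347 to 542 later. Neurog1, a proneural factor of dorsal spinal cord and sensory lineages, stood at 412 CPM in MULTI-seq 1 and at 9.92 at days 4.5 and 5 of MULTI-seq 3, with 4 of 7 and 2 of 17 Neurons holding a UMI, and thinned shares of 50.0% and 0%. Ebf1 (62 Neurons), Insm1 (52) and Myt1 (31), factors of early differentiation, stood above Late Spinal Cord in all 6 pools. Hes5, the Notch target of progenitors, was seen in 7 Neurons at 14.3 CPM, against 259 in Late Spinal Cord.

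Genes of the neuronal cytoskeleton and growth cone were high in sum in the Neurons of every pool, though single genes differed widely between pools. Over the 70 summed cells, all 29 genes of that list were higher than in every other named population. So were 5441 of all 27114 genes (20.1%), or 5441 of the 14414 with a UMI in Neurons. Together the 29 were at 26812 CPM against 2227 in Late Spinal Cord, and by pool they ran from 8656 (MULTI-seq 1) to 43029 (days 3.5 and 4). In a median Neuron they took 1.91% of UMIs, with a range of 0.277% to 5.91%, against a median of 0.221% over the 5854 Late Spinal Cord cells of the barcoded pools. Map1b, which binds axonal microtubules, and Tuba1a, Tubb2b and Stmn1 had a UMI in all 70. Gap43, a growth cone protein, had a UMI in 16 of 17 Neurons at day 3 and 9 of 9 at days 3.5 and 4, at 1111 and 1761 CPM. In pools B and C it had a UMI in 3 and 2 of 10 Neurons, at 37.5 and 116 CPM, and in MULTI-seq 1 in 2 of 7, at 43.4. At days 4.5 and 5 of MULTI-seq 3 it was in 8 of 17 Neurons, at 725 CPM. By day-5 gastruloid there, Gap43 ran from 0 to 2206 CPM, with the highest value in gastruloid 18. Its thinned shares were 88.2% and 88.9% in the early pools, 35.3% in the late pool of MULTI-seq 3, 20% over pools B and C and 16.7% at day 5 of MULTI-seq 1, against 6.05% in Mature Somites. Gap43 was therefore high in the early pools, where Dll1 was low, and the late pool of MULTI-seq 3 lay between the early pools and the rest.

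Nefl, the light neurofilament subunit of axons, was uneven between pools. Its level was 1773 and 3657 CPM in the 2 early pools of MULTI-seq 3 and 1972 at days 4.5 and 5, and 68.7, 17.9 and 21.7 in pool B, pool C and MULTI-seq 1. Of the 512 Nefl UMIs in the 12 day-5 Neurons of MULTI-seq 3, 390 came from gastruloid 18, which held 2 Neurons. Using a limit of 500 CPM, chosen after the values were seen, 22 of 70 Neurons were above it, with 7 cells between 250 and 1000. They comprised 9 of 17 at day 3, 7 of 9 at days 3.5 and 4, 5 of 17 at days 4.5 and 5, 1 of 10 in pool B, 0 of 10 in pool C and 0 of 7 in MULTI-seq 1. Of these 22, 3 had a Dll1 UMI, 3 a Gadd45g UMI and 19 a Pou4f1 UMI, and 22 had a Gap43 UMI. Of the other 48, 27 had Dll1, 43 Gadd45g, 12 Pou4f1 and 18 Gap43. Within pools, Dll1 was in 1 of 9 Neurons above the limit and 1 of 8 below it at day 3, in 0 of 7 and 0 of 2 at days 3.5 and 4, and in 1 of 5 and 11 of 12 at days 4.5 and 5. The pooled contrast in Dll1 was seen inside the last of these pools but not at day 3. Gadd45g was in 1 of 9 and 6 of 8 at day 3, in 2 of 7 and 2 of 2 at days 3.5 and 4, and in 0 of 5 and 12 of 12 at days 4.5 and 5. Gap43 was in 9 of 9 and 7 of 8 at day 3. At days 3.5 and 4 it was in 7 of 7 and 2 of 2, so its pooled contrast was not seen in the early pools. At days 4.5 and 5 it was in 5 of 5 and 3 of 12. Pou4f1 was in 8 of 9 and 3 of 8 at day 3. It was in 6 of 7 and 2 of 2 at days 3.5 and 4. At days 4.5 and 5 it was in 5 of 5 and 5 of 12. This is a division of a range, not a test of separate types. Nefl was also seen in 29.0% of Mature Somites cells at 5000 UMIs, at a level of 88.2 CPM, and the shares in pools B and C (10.0%) and in MULTI-seq 1 (0%) were below that.

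**Figure D3:**
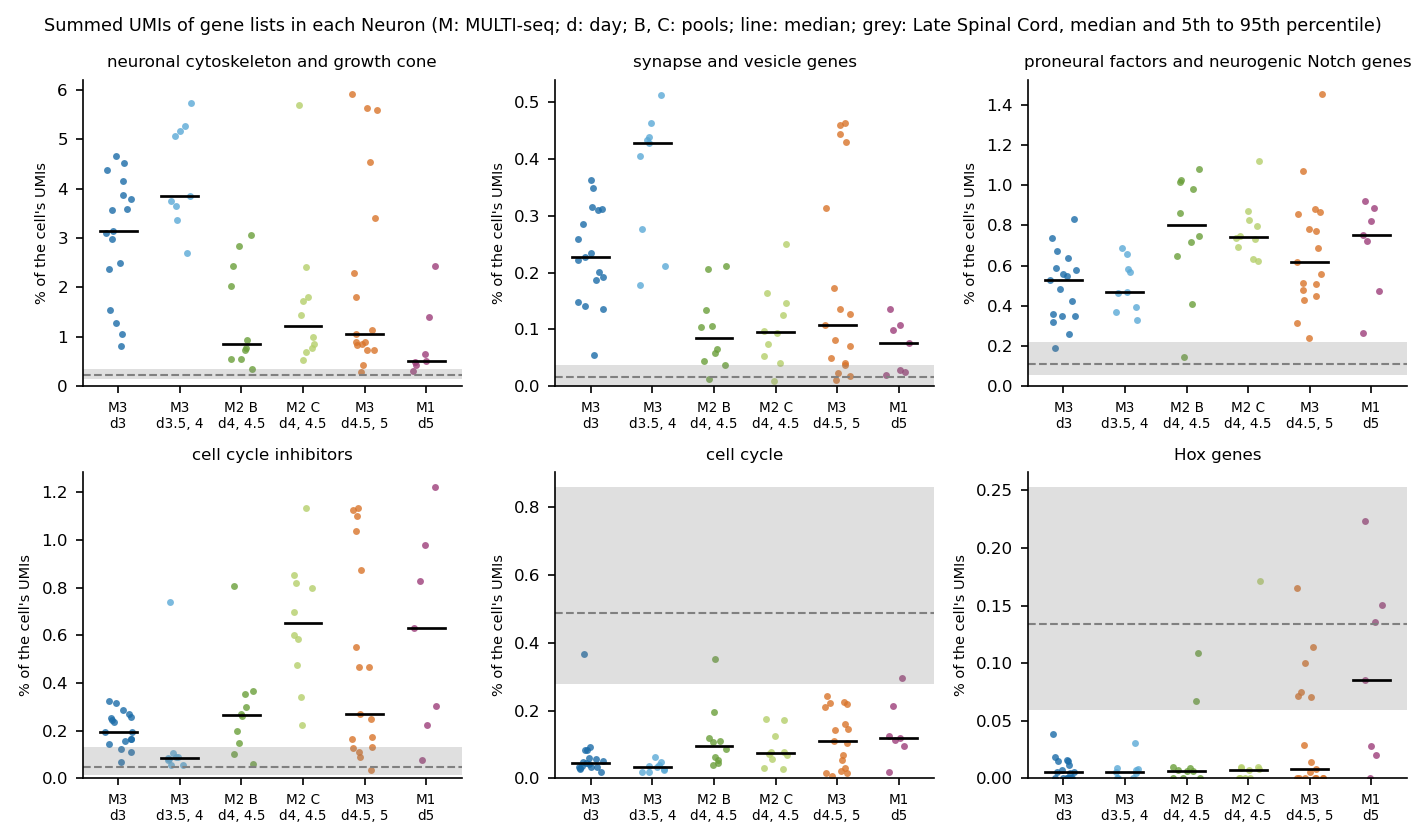
Share of each cell's UMIs (y axis, percent) taken by 6 gene lists in each Neuron, by pool (M: MULTI-seq experiment; d: day), with the Late Spinal Cord median and its 5th to 95th percentiles in grey. For the neuronal cytoskeleton and growth cone, the medians were 3.13% and 3.85% in the 2 early pools and 0.500% to 1.22% in the later ones.

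RNA-binding and chromatin factors of neurons were higher in Neurons than in Late Spinal Cord for 22 of 24 genes, at 4190.2 CPM in sum against 507. The neuronal Elavl paralogs Elavl4 and Elavl2 each had a UMI in 61 Neurons, at 658 and 448 CPM. Srrm4, the splicing factor that includes neuronal microexons, had one in 63, at 341 CPM against 7.04 in Late Spinal Cord. Lower in Neurons were Ptbp1, the splicing repressor that neurons switch off, at 56.4 against 162, and Rest, the repressor of neuronal genes outside the nervous system, at 5.89 against 61.2. Ptbp2, the paralog that takes over from Ptbp1 in neurons, was at 183 against 95.7.

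Synapse and vesicle genes were higher too. All 30 were higher than in Late Spinal Cord, and their sum was 2128 CPM against 170.3. Snap25, a membrane fusion protein of synaptic vesicles, had a UMI in 41 Neurons, and Syt1, the calcium sensor of release, in 26. By pool, the sum was 2325 and 3699 CPM in the 2 early pools and 2011 in the late pool of MULTI-seq 3, and it lay between 716 and 1046 in the other pools. Among 28 ion channels and transmitter receptors, 26 were higher, at a sum of 438 against 32.9. Axon guidance and adhesion genes were higher in 31 of 34, and Dcc, the netrin receptor of commissural axons, had a UMI in 54 Neurons at 224 CPM against 3.20.

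Genes that define a transmitter were nearly silent. Of 19 such genes, 10 had any UMI, and their sum was 53.9 CPM. Slc17a6, the vesicular transporter of glutamatergic neurons, had a UMI in 7 Neurons, Slc18a2, the monoamine transporter, in 14 and Gad1, which makes GABA, in 2. Gad2, Slc32a1, Chat, Slc6a5 and Th were at 0 UMIs. Of 48 genes listed for postmitotic spinal neuron subtypes, transcription factors except for the receptor gene Chrna4, 35 had a UMI. Pou4f1, a factor of sensory and dorsal neurons, was in 11 of 17 Neurons at day 3, 8 of 9 at days 3.5 and 4, 10 of 17 at days 4.5 and 5, 1 of 10 in each of pools B and C and 0 of 7 in MULTI-seq 1. At 5000 UMIs these shares were 52.9%, 66.7%, 41.2%, 0% for MULTI-seq 2 and 0%, against 2.02% in Mature Somites. Lhx2, of dorsal commissural neurons, was in 12 of 17 at day 3 and in 7 of the other 53, with thinned shares of 52.9% at day 3 and 0% to 22.2% elsewhere. Tlx3, of dorsal excitatory neurons, was in 3 of 17 at day 3 and in 7 of 10 in pool C, with a thinned share of 11.8% at day 3 and 45% over pools B and C. Isl1, of motor and sensory neurons, was in 15 of 70. No single factor of these 4 was in more than 31 of 70 Neurons, while 1 of the 48 listed genes was in at least 35.

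Cell cycle genes were low throughout. None of 28 was higher in Neurons than in Late Spinal Cord, and the sum was 842 CPM against 5286. Top2a, a topoisomerase of dividing cells, had a UMI in 12 Neurons, at 12.6 CPM against 453, and Mki67, the Ki-67 proliferation antigen, in 1 Neuron, at 0.841 against 175. Of 10 cell cycle inhibitors, 9 were higher, at a sum of 3149 against 537. Levels of inhibitors differed between pools, with no call among the 3 tested by day. Cdkn1c, the p57 inhibitor of neuronal cell cycle exit, was at 776 and 485 CPM in the early pools and at 1530.5 to 4962 in the later ones, and it had a UMI in at least 8 Neurons of every pool but MULTI-seq 1, where all 7 held it. By gastruloid, Cdkn1c was at 54.7, 206 and 334 CPM at day 3.5 and at 5534 in the 1 Neuron assigned to day 4, within the same early pool. At 5000 UMIs its share was 88.2% and 55.6% in the early pools and 85% to 100% later, against 66.8% in Mature Somites. Cdkn2a, which encodes the p16 and p19 Arf inhibitors, was at 259 and 157 CPM in the early pools, in 15 of 17 and 8 of 9 Neurons, and at 0 to 39.7 later. Its thinned shares were 52.9% and 33.3% early and 0% to 11.8% later, against 1.76% in Mature Somites.

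Hox genes, which mark position along the trunk, were sparse. Only 3 of 39 were higher in Neurons than in Late Spinal Cord, 27 had any UMI, and the sum was 225 CPM against 1364. Both sums run over all days, and the contrast was not made within a day. The sums were 76.7 and 74.0 CPM in the 2 early pools, 249.9 and 259 in pools B and C, 364 at days 4.5 and 5 of MULTI-seq 3 and 998 in MULTI-seq 1. Hoxb9, a posterior trunk gene, had a UMI in 1 of 17 Neurons at day 3 and in 5 of 7 in MULTI-seq 1, where its level was 260.3 CPM. At 5000 UMIs those shares were 0% and 66.7%, beside 74.1% in Late Spinal Cord and 21.7% in Mature Somites. In retinoic acid handling, the binding proteins moved apart: Crabp1 was at 3122 CPM against 43.4 in Late Spinal Cord, and Crabp2 at 166 against 509.7. At 5000 UMIs, Crabp1 was seen in 68.1% of Neurons, 12.8% of Late Spinal Cord cells and 42.1% of Mature Somites cells.

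Progenitor genes and markers of other cell types were looked for in the same cells. Among 28 neural progenitor genes, 13 were higher in Neurons and their sums were alike, 1435 against 1333 CPM, while Sox2 was lower at 77.4 against 264. The sensory neuron and placode list was higher for 11 of 12 genes, at 563 CPM against 23.1. Of the 12, 7 were highest in Neurons among the named populations, and Prph had a UMI in 5 Neurons. Of all genes 20.1% were highest there, or 5441 of the 14414 with a UMI in Neurons. The neural crest and glia list was at 362 against 57.0, with 54.0 and 37.0 in the early pools and 344 to 1162 later. In that list, Tfap2b, a crest and dorsal interneuron factor, had a UMI in 26 Neurons, and the crest and glial factor Sox10 was at 0. Somite genes summed to 103 CPM and heart genes to 100.1, of which Isl1 gave 90.0. Endothelial, endodermal, pluripotent, notochord and neuromesodermal genes each summed to at most 36.2. The part these markers play in the results was not tested.

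Day was compared within MULTI-seq 3, the only experiment with Neurons at both ends of its time course. Neurons were summed by gastruloid, giving 5 gastruloids with 12 Neurons at day 5 and 7 gastruloids with 1 Neuron each at day 3, and 492 genes with enough UMIs were tested by edgeR's quasi-likelihood test with Benjamini-Hochberg adjustment. Day and pool cannot be told apart here, since day 3 was processed in its own pool and day 5 in another, shared with day 4.5. Of the 492 genes, 2 were higher at day 5 (0.407% of those tested) and 3 lower (0.61%), 1.02% in all, while 94 had an unadjusted p under 0.05. For 7 genes the values of the day-5 and day-3 gastruloids did not overlap. The other 10 of the 17 day-3 Neurons had no single gastruloid and did not enter the test, so their values are given beside each call. The counts moved with single lanes: without lane A of day 3 there were 0 higher and 0 lower genes, without its lane B 8 and 11, and without lane C of days 4.5 and 5 there were 3 and 8. Leaving out lane A or B of the later pool, or gastruloid 2, 7 or 13, gave 1 higher gene, and lower genes stood at 1 without that lane A and without gastruloid 7.

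Ptn, which encodes the secreted growth factor pleiotrophin, was the gene that rose furthest. Its level was 566, 617, 668, 2131 and 3053 CPM in the 5 gastruloids of day 5 and 0 in all 7 of day 3. The log2 difference was 7.96 (SE 1.27, adjusted p = 0.00145), a fitted value that depends on the prior count because day 3 was at 0. Of the 10 day-3 Neurons without a gastruloid, 5 held Ptn, 17 UMIs in all and at most 193 CPM, so that over all 17 day-3 Neurons the level was 48.3 CPM. The level over the 12 day-5 Neurons was 1315 CPM, which is 27.2-fold higher. In between, the 3 gastruloids of day 3.5 were at 34.3, 137 and 543 and the 2 of day 4.5 at 615 and 2099, so levels after day 3 were above 0 in every gastruloid of those days. Ptn is not particular to these cells: at 5000 UMIs it was seen in 99.2% of Late Spinal Cord and 93.5% of Mature Somites cells, and its level in all other cells was 870.2 CPM at day 5 and 149 at day 3. Whether RNA from other cells contributed to the level in Neurons was not tested.

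Tmsb4x, the actin-sequestering thymosin beta 4 of motile cells, was the other gene that rose. Day 5 gave 7843, 10838, 12761, 16227 and 16544 CPM, and day 3 ran from 2684 to 8803 with a median of 5431, a log2 difference of 1.05 (SE 0.25, adjusted p = 0.0274). The groups overlapped, since the lowest day-5 gastruloid lay below the highest of day 3. The 10 unassigned day-3 Neurons ran from 2495 to 26256 CPM, and over all 17 the level was 6979.8, against 12205 at day 5. This call was lost in 7 of 16 alternatives: thinning (adjusted p = 0.117), lane A of day 3 left out (0.108), lane A or B of the later pool left out (0.0856 and 0.076), and gastruloid 13, 2 or 7 left out (0.105, 0.0953 and 0.0541). In all other cells it also stood higher at day 5, at 494 against 98.9 CPM, while in Late Spinal Cord it stood lower, at 671 against 1552. That day-3 value sums all Late Spinal Cord cells of day 3 in MULTI-seq 3, whose number is not given here. No day-3 gastruloid with a Neuron held more than 1 such cell.

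The 3 genes that fell were Lhx2, Epb41 and Malat1. Lhx2 was at 0 in all 5 gastruloids of day 5 and between 113 and 1396 CPM, with a median of 439, in the 7 of day 3 (fitted log2 difference -6.65, SE 1.44, adjusted p = 0.0263, whose size depends on the prior count since day 5 was at 0; against the floor of 3 counts, at least 31.1-fold lower). Epb41, a membrane skeleton protein, was at 0, 18.9, 111, 142 and 189 CPM at day 5 and between 244 and 1093, with a median of 453, at day 3 (-2.75, SE 0.58, adjusted p = 0.012). Both sets of gastruloid values were apart without overlap. Among the 10 unassigned day-3 Neurons, Lhx2 had a UMI in 5, at up to 337 CPM, and over all 17 day 5 was at least 16.0-fold lower, taking 3 counts over the group as the floor. Epb41 ran from 0 to 662 CPM in those 10, of which 4 lay within the day-5 range, and its level over all 17 was 452 CPM, against 95.4 over the 12 day-5 Neurons. Malat1, a nuclear long non-coding RNA, ran from 6941 to 16950.1 CPM at day 5 and from 22509 to 39147 at day 3 (-1.53, SE 0.33, adjusted p = 0.012), without overlap among gastruloids. The 10 unassigned day-3 Neurons ran from 7299 to 36584 CPM, and 4 of them lay within the day-5 range. Over all 17 its level was 24139 CPM, against 13159 at day 5, a ratio of 0.545 that is nearer to 1 than the fitted difference. In all other cells none of these 3 was lower at day 5: Epb41 was at 76.4 against 39.9 CPM, Malat1 at 4958 against 4891 and Lhx2 at 0.578 against 0.480. That difference between Neurons and other cells was not tested. None of the 5 calls held without lane A of day 3, where the adjusted p was 0.0684 for Ptn, 0.162 for Malat1 and 0.226 for both Epb41 and Lhx2. Ptn and Epb41 were lost in that alternative only, of the 15 in which each was tested. Thinning is not counted among these for Ptn, Epb41 or Lhx2, which were not among the genes tested after it. After thinning, Malat1 was the only gene called in either direction, and that setting gives no result for or against the calls of Ptn, Epb41 and Lhx2. Malat1 was lost in 3 of 16, also without lane A of the later pool (0.0865) or gastruloid 7 (0.0541). Lhx2 was lost in 5 of the 13 in which it was tested, also without that lane A (0.0856), lane B of that pool (0.076), gastruloid 2 (0.0831) or gastruloid 7 (0.0541). Lanes are technical splits of the pool, so leaving one out removes Neurons and not only depth.

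**Figure D4:**
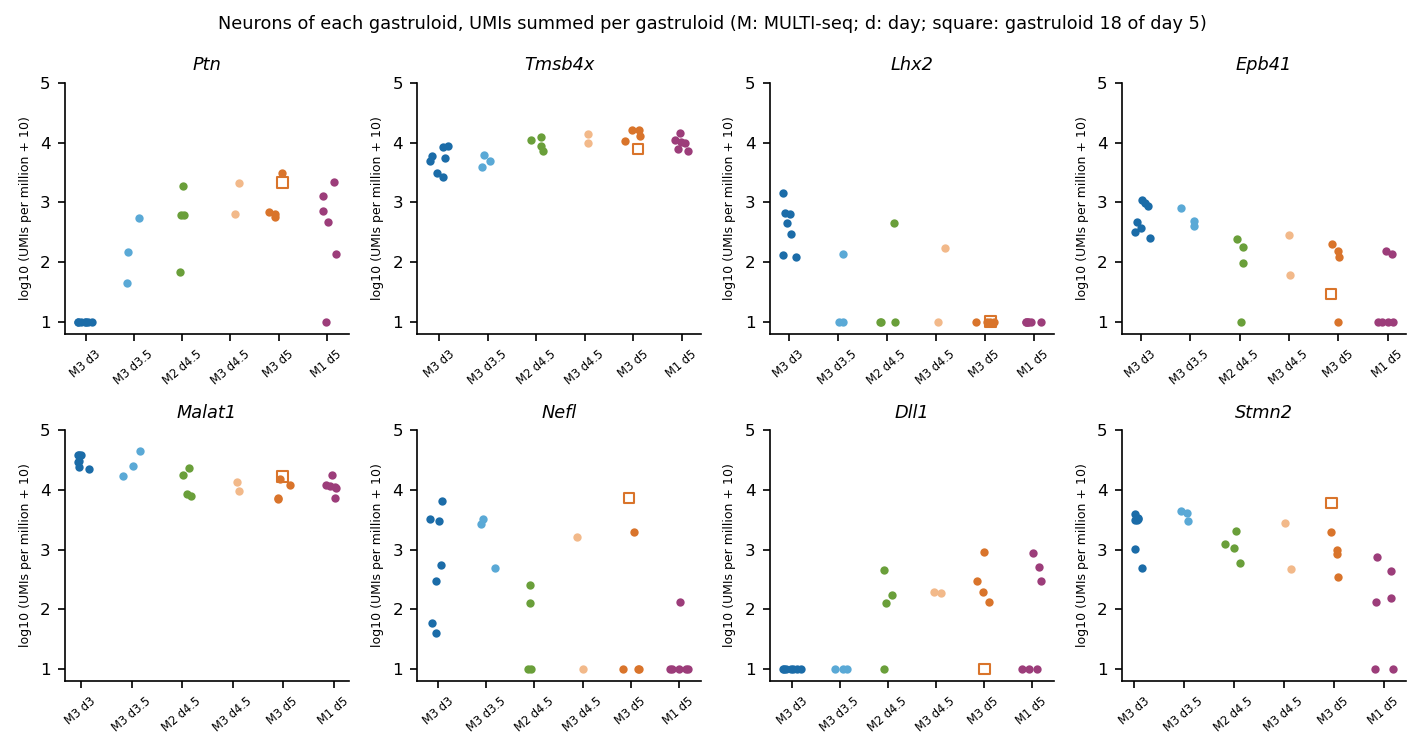
Level of 8 genes in the Neurons of each gastruloid (y axis, CPM, log10 scale after adding 10). Shown are days 3, 3.5, 4.5 and 5 of MULTI-seq 3, day 4.5 of MULTI-seq 2 and day 5 of MULTI-seq 1. Day 4 of MULTI-seq 3 is not drawn, and the square marks gastruloid 18 of day 5. Ptn was 0 in all 7 gastruloids of day 3 and at least 566 in the 5 of day 5, while Lhx2 had the opposite order; the 10 day-3 Neurons without a gastruloid are not drawn.

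Dll1, Gadd45g and Nefl, described above by pool, did not pass this test. Dll1 was at 0 in the 7 gastruloids of day 3 (2 of the 10 unassigned Neurons held a UMI) and at 0, 124, 186, 285 and 912 CPM at day 5, with a log2 difference of 5.72 and an adjusted p of 0.0828. Gadd45g had a log2 difference of 3.22 (adjusted p = 0.0823). Nefl was at 0 in 3 gastruloids of day 5 and at 1929 and 7353 in the other 2, beside a day-3 median of 546 and a day-3 high of 6419, for a log2 difference of 0.00 (adjusted p = 0.998). Its high day-5 value came from gastruloid 18, a mesodermal gastruloid with 2 Neurons and no Dll1 UMI in them. Without that gastruloid, 28 genes were higher at day 5 and 31 lower, so it decides how many genes were called. Tubb3 differed by -0.76 (adjusted p = 0.365) and Stmn2 by -0.33 (adjusted p = 0.759). Of 20 cytoskeleton genes tested, 0 passed, with a median log2 difference of -0.69 and 3 above 0, where the median over all 492 genes was -0.01 and 244 were above 0. Of 9 proneural and Notch genes tested, 0 passed, with a median of 0.46.

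Experiment was compared at day 5, MULTI-seq 3 (5 gastruloids, 12 Neurons) against MULTI-seq 1 (6 gastruloids, 7 Neurons), to see how far Neurons of 1 day repeated between experiments. Experiment and pool cannot be told apart, and the depth per Neuron differed, with median UMIs of 14098 at day 5 of MULTI-seq 3 and 7005 in MULTI-seq 1. Of 492 genes tested by edgeR, 22 were higher in MULTI-seq 3 (4.47%) and 16 lower (3.25%), 7.72% in all, with 104 at an unadjusted p under 0.05 and 21 without overlap between the groups. Of 10 mitochondrially encoded transcripts tested, 9 (90.0%) were lower, led in significance by mt-Atp6, a subunit of ATP synthase, at a mean of 2703 against 19407 CPM (log2 difference -2.86, SE 0.26, adjusted p = 6.17e-09). Of 80 Rpl and Rps ribosomal protein genes tested, 8 (10.0%) were higher and 0 lower. All 38 called genes differed in the same direction in Late Spinal Cord cells of the same experiments, as they did in all other cells, with mt-Atp6 at 3053 against 11983 CPM there in Late Spinal Cord. Some of these differences were near 0 outside Neurons: Prdx1 differed by 0.05 on the log2 scale in Late Spinal Cord, against 1.47 in Neurons. The share of all tested genes with the same sign was not computed. The number of higher genes fell to 4, 3 and 9 without lanes 1, 2 and 3 of MULTI-seq 1, and to 13 without gastruloid 2 of MULTI-seq 3, and the lower genes to 10 without lane 2.

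A pair of the called genes belongs to neuronal lists. Stmn2 was at 334, 818, 990.2, 1977 and 5996 CPM in MULTI-seq 3 and at 0, 0, 124, 143, 426 and 734 in MULTI-seq 1, a log2 difference of 3.00 (SE 0.78, adjusted p = 0.0154), with some overlap. The Stmn2 call was lost in 3 of 16 alternatives. Among them, the adjusted p was 0.128 without lane 2 of MULTI-seq 1 and 0.0718 without its lane 3. In Late Spinal Cord, Stmn2 was at 19.0 against 12.1. Neurog1 was at 0 in 4 gastruloids of MULTI-seq 3 and 31.4 in the other, and at 0, 0, 124, 571, 1003 and 1111 in MULTI-seq 1 (-5.33, SE 1.52, adjusted p = 0.0279). Its adjusted p was 0.053 without gastruloid 2 of MULTI-seq 3. Other large differences upward were in Tmsb10 (2.28), Pfn1 (2.01), Gm10076 (2.98), Atp5md (2.04), Selenow (1.75), Atpif1 (1.48), Prdx1 (1.47) and Serf2 (1.41). Downward they were in mt-Nd4 (-3.04), mt-Nd2 (-2.71), mt-Co3 (-2.23), mt-Nd5 (-1.98), mt-Nd1 (-1.88), mt-Co2 (-1.81), mt-Co1 (-1.75) and the RNA helicase Ddx5 (-1.59). Several of these calls were fragile: mt-Nd5 was lost in 8 of 15 alternatives (highest adjusted p = 0.463), Selenow in 7 of 15 (0.148) and Atpif1 in 6 of 15 (0.132), whereas mt-Atp6, mt-Nd4, mt-Nd2 and mt-Co3 held in 16 of 16. Of 20 cytoskeleton genes tested, Stmn2 alone passed, and 18 were above 0 with a median of 1.54, where 288 of all 492 were above 0 with a median of 0.15. Tubb3 differed by 1.20 (adjusted p = 0.171), Stmn1 by 1.48 (adjusted p = 0.0717) and Dll1 by 0.15 (adjusted p = 0.983).

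Whether the difference between experiments in Neurons departed from that in Late Spinal Cord was tested directly, in 3 gastruloids of MULTI-seq 3 and 6 of MULTI-seq 1 that held a Neuron and at least 10 Late Spinal Cord cells. Of 3342 genes, 0 passed edgeR's test (0% called), 368 had an unadjusted p under 0.05 and DESeq2 called 0. Leaving out gastruloid 7 of MULTI-seq 3 gave 7 genes, its lane A 4 and its gastruloid 10 gave 2, and lane 1 of MULTI-seq 1 gave 1. A trend of gene levels in day-5 Neurons with the neural share of their gastruloid, adjusted for experiment over 11 gastruloids and 144 genes, gave 0 genes by edgeR (0% called), with 29 at an unadjusted p under 0.05. There, leaving out gastruloid 13 of MULTI-seq 3 gave 11 genes and gastruloid 2 gave 9, and other single omissions 0 to 4.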

How the data were processed

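Gastruloid cells were profiled by droplet sequencing with UMIs. The authors' deposited matrices hold UMI counts per gene and cell, made with Cell Ranger 6.0.0 on mm10 (Seurat is also listed), per the submitters' processing notes. The deposited cell table gave names, days, gastruloids, phases, atlas matches with their mapping score (a fraction of reference neighbours, per the values) and the authors' doublet score. All annotated cells with the name Neurons were used; no doublet caller was run here, the authors' doublet call is negative for every annotated cell, and 4 Neurons with more than 1 barcode stayed out of gastruloid tests. The members and lists were chosen with earlier results of these data known.

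Levels are CPM, computed here from the UMI counts of the summed cells; levels of different genes are not per length and are not compared. Reads from overlapping genes or pseudogenes such as Gm10076 cannot be told apart from those of their copies. Gene tests used edgeR 4.0.16 (quasi-likelihood, TMM, low counts filtered) in R 4.3.3 on counts summed per gastruloid, with DESeq2 1.42.0 as an alternative, and an adjusted p under 0.05 counted as a call. The planned minimum of 10 Neurons per gastruloid (5 as fallback) could not be met, so 1 was used, a choice made after seeing the data, as was day 5 against day 3. Shares and cell quality were tested by two-sided permutation over gastruloids (Python 3.11.15, scipy 1.17.1). Replicates are gastruloids, and the labels do not say that they came from separate cultures, so p-values cover the spread between gastruloids of an experiment. In the gene tests a gastruloid gave at most 4 Neurons and often 1. Spread between gastruloids and spread between single cells cannot be told apart there. Genes named are the 10 largest called changes in each direction, called list members, and the 20 leading genes by ratio of day-5 level over the highest other name (at least 100 cells, and a level of at least 20 in both experiments); other examples within lists were chosen after their values were seen. Counts were also simulated for 492 genes, with 100 changed 4-fold and 100 changed 16-fold. Day 5 against day 3 recovered 92% and 100% of these with 1 false call. MULTI-seq 3 against MULTI-seq 1 recovered 80% and 99% with 9 false calls. That share of changed genes is far above the share called in the data and eases the adjustment, so recovery in the data can be lower. Alternatives covered normalization, filters, depth, and each gastruloid or lane left out. Some genes that these rules name are not reported here.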

Additional observations from a re-analysis of the deposited data

Results flagged for a closer look

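Among 37 sets of per-gastruloid values tested for a single extreme gastruloid, 5 held one, where chance gives about 1 in 20 for continuous values. That rate does not apply to 3 of the 5, in which all other gastruloids were at 0 and any gastruloid with a UMI would be picked out. In the 4 gastruloids of MULTI-seq 2 day 4.5, a different gastruloid stood far from the rest for each of 3 genes: Lhx2 was at 441 CPM in the Neurons of gastruloid 59 and at 0 in the others, Neurog1 was at 113 in gastruloid 66 and at 0 in the others, and Elavl3 was at 452 in gastruloid 19, with the next at 229 and the lowest at 198. At day 3 of MULTI-seq 3, Lhx2 reached 1396 in gastruloid 66, with the next of the 7 at 642 and the lowest at 113. At day 5 of MULTI-seq 3, Neurog1 was at 31.4 in gastruloid 10 and at 0 in the other 4. Each gastruloid held 1 to 4 Neurons, so a value can come from 1 cell.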

How the results depend on the processing

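No gastruloid held more than 4 Neurons, and counts of called genes moved with single gastruloids and lanes. For day 5 against day 3, the 2 higher and 3 lower genes became 56 and 20 with no filter on low counts, 9 and 8 with a minimum count of 3, and 0 and 1 after thinning. DESeq2 gave 14 lower genes, and adding day 4.5 gave 5 lower. With 1 gastruloid or lane left out, higher genes ran from 0 to 28 and lower genes from 0 to 31, the most without gastruloid 18 of day 5 and 0 without lane A of day 3. For MULTI-seq 3 against MULTI-seq 1, the 22 higher and 16 lower genes became 132 and 10 with no filter, and 46 and 9 with a minimum count of 3, and thinning gave 12 higher. Leaving out 1 gastruloid or lane gave 3 to 29 higher and 10 to 19 lower: higher genes were 4, 3 and 9 without lanes 1, 2 and 3 of MULTI-seq 1, and 13 without gastruloid 2 of MULTI-seq 3. For the comparison with Late Spinal Cord the 0 calls ran from 0 to 7 with 1 left out. For the trend with neural share, 0 became 98 with no filter, 3 thinned, 2 with a minimum count of 3, and 0 to 11 with 1 left out. The mitochondrial difference from Late Spinal Cord ran from 1.11 to 1.73 percentage points, with an exact permutation p of 0.0938 at 1.28 without lane 2 of MULTI-seq 1. The causes of these shifts were not tested. No value changed sign as a call.

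No paired analysis was possible because the replicate numbers that groups share in the labels are lanes, which split a pool technically and pair no samples across groups. This concerns replicate numbers only: Neurons were compared with other cells within the same gastruloids. Not run were day 5 against day 4.5 within Neurons of MULTI-seq 3, since day 4.5 had 2 gastruloids with Neurons, the matching day difference against Late Spinal Cord, and the minimums of 5 and 20 Neurons.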

Other observations

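Cells that the deposited atlas map placed among dorsal midbrain neurons were more numerous than those named Neurons. Of 152 cells so mapped, 69 were Neurons, 50 were named Late Spinal Cord, 29 Late Neurectoderm, 2 Mature Somites, 1 Early Posterior PSM and 1 Late Anterior PSM, so 83 (54.6%) lay outside the name. The 50 Late Spinal Cord cells were at 142 CPM for Tubb3, 57.0 for Elavl3 and 0.838 for Dcx, with a Tubb3 UMI in 29, an Elavl3 UMI in 22 and a Dcx UMI in 1. In the other Late Spinal Cord cells Tubb3 was at 18.6 and Elavl3 at 2.84. Nhlh1 was at 37.7 in the 50, with a UMI in 18, against 0.0963 in the others, and Insm1 at 51.9 against 0.218. Their Dll1 level was 536 and 49 of 50 held a UMI, beside 26.2 CPM in the other 5825 Late Spinal Cord cells and 122 in Neurons. Their Sox2 level was 529 and their Top2a level 524, against 77.4 and 12.6 in Neurons, and 42.0% were called G1. The 29 Late Neurectoderm cells were at 144 for Tubb3, 300.1 for Dll1 and 792 for Top2a, with 55.2% in G1. Stmn2 went the other way there: it was at 119 CPM with a UMI in 44.8% of the 29, against 320.2 CPM and 79.0% in the other Late Neurectoderm cells. Of the other Late Spinal Cord cells 20.4% were called G1, and of the other Late Neurectoderm cells 17.6%. Top2a had a UMI in 68.0% of the 50 and 62.1% of the 29, fewer than in the other cells of those names (88.9% and 90.2%), although its level was higher in both. These values are descriptions, since the map used the same genes.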
